A study of Homo sapiens with 6 samples.

Results

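Collagen and extracellular matrix genes were described as a group of 36 genes, out of 20033 protein-coding genes, in the chromatin accessibility of human neural progenitor cells (NPCs). The group was set by name and by no measured value here: 9 genes of fibril-forming collagens, 13 genes of the basement membrane, 7 genes of other collagens, and 7 genes of matrix glycoproteins and cross-linking. Collagen genes were named by the study from these same samples as genes with more open chromatin in dKO cells, so the group is not independent evidence of that direction. The paper called this increase slight and limited it to a small number of matrix genes, among them some collagen genes. Its main result for dKO NPCs was the opposite, a loss of accessibility at neural genes that included SOX1 and SOX2. The assay was ATAC-seq, where a transposase, Tn5, cuts and tags DNA that nucleosomes leave exposed. The 6 samples formed 3 groups of 2 replicates, all NPCs made from H1, an established human embryonic stem cell line. WT NPCs were unmodified, dKO NPCs carried a knockout of both UTX (KDM6A) and JMJD3 (KDM6B), and dKO-BAF53B NPCs carried the same knockouts and received BAF53B, the neuronal BAF subunit encoded by ACTL6B, from a lentivirus. UTX and JMJD3 are demethylases of a repressive mark on histone H3, and the BAF complex remodels nucleosomes. The comparisons ask where the matrix genes were open in dKO NPCs and not in WT NPCs, and where they were open once BAF53B was added. No group is labelled as having received a control lentivirus, so BAF53B and transduction cannot be told apart.

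Collagens are secreted as triple helices of alpha chains. Fibrillar collagens give bone, skin and cartilage their tensile strength, while type IV collagen, laminins, nidogen and the heparan sulfate proteoglycans perlecan and agrin build the basement membrane, the thin sheet on which epithelial and neuroepithelial cells rest. Laminins and fibronectin bind integrin receptors at the cell surface, and mesenchymal cells such as fibroblasts are the main source of fibrillar collagen in most tissues.

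Each group had 1 peak list, pooled by the authors over both replicates. There is therefore no replicate value, no SD and no test below, and differences between lists describe 3 pooled libraries. Each peak has a fold over its local background, and the number of fragments stacked at its summit (the pileup) was solved from the fold and its p-value. The lists held 7880 peaks in WT, 25439 in dKO and 16948 in dKO-BAF53B, and the lowest pileups listed were 25, 25 and 26. Against WT, the number of listed peaks was 3.23-fold in dKO and 2.15-fold in dKO-BAF53B, while the genome backgrounds, which follow depth, were 1.08 and 1.07 times the WT value. A gene without a peak has no value, and a weaker signal there cannot be told from none. Among 8 neural progenitor markers, promoter peaks were called at 1 (VIM) in WT, 5 in dKO (SOX1, SOX2, SOX3, FABP7 and VIM) and 3 in dKO-BAF53B (SOX1, FABP7 and VIM), while PAX6, NES and HES5 and all 4 pluripotency markers had none in any list. At SOX1 and SOX2 the calls in dKO and not in WT run opposite to the direction the paper gives. The reason for this difference was not tested. Among 8 mesenchymal and fibroblast markers, promoter peaks were called at 1 in WT (PDGFRA), 3 in dKO (PDGFRA, TWIST1 and THY1) and 1 in dKO-BAF53B (PRRX1). DCN and LUM of this list, which are also among the pathway genes given at the end, had none in any list. Of 5 neural crest and 5 endothelial markers, SNAI2 and KDR were the 1 of each with a promoter peak, in dKO and dKO-BAF53B. The part of such cells in the results was not tested. Over all protein-coding genes, promoter peaks were called at 28.2% in WT, 56.4% in dKO and 45.0% in dKO-BAF53B. More calls in dKO than in WT were thus common to all genes and not particular to markers. The knocked-out genes check nothing here, since a promoter peak does not show whether the coding sequence is intact. The promoter pileup was 45 in dKO and 32 in dKO-BAF53B at KDM6A, which had no WT peak, and 53, 173 and 71 in WT, dKO and dKO-BAF53B at KDM6B.

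Promoter peaks at matrix genes were few in WT NPCs and more frequent in both dKO lists. A promoter peak is one that overlapped, by at least 1 bp, the 3 kb on either side of the 5′ end of the gene (TSS) in GENCODE version 44 on hg38. In WT, 2 of 36 members (5.56%) had one, namely LAMB2 and SPARC, against 28.2% of all protein-coding genes. In dKO, 15 members (41.7%) had one, against 56.4% of all genes. In dKO-BAF53B, 11 members (30.6%) had one, against 45.0% of all genes. In each list, the share of members was thus below that of all genes.

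The share of members called in dKO and missing from WT was above that of all genes with all peaks counted. It was below that of all genes with a stricter q limit or with lists of equal length. Such a call needs a gene without a WT peak, and a WT peak was present at 5.56% of members, against 28.2% of all genes. The share among genes without a WT peak was not computed, so no gain beyond that of all genes is shown. A promoter peak was called in dKO and not in WT at 13 members (36.1%), against 28.6% of all genes. These were COL1A1, COL2A1, COL5A1, COL11A1, COL4A5, COL4A6, LAMA1, LAMC1, HSPG2, AGRN, FN1, FBN1 and TNC. The opposite, a WT call missing from dKO, was found at 0 members, against 0.399% of all genes. Of the 13 members, 8 (22.2% of all members) also had a promoter peak in dKO-BAF53B, against 16.2% of all genes. In 19 members (52.8%) no list held a promoter peak, against 41.3% of all genes. When each list was limited to its strongest 7880 peaks, the dKO peaks that were absent from WT remained at 3 members (COL5A1, COL11A1 and HSPG2; 8.33%, against 9.35% of all genes), and at 2 members (LAMB2 and SPARC; 5.56%, against 4.24%) the promoter was called in WT alone of this pair. At a −log10 q of at least 10, 9 members (25%) were in dKO and not in WT, against 28.2% of all genes. Among these 9 were LAMB2 and SPARC, whose WT peaks (−log10 q 7.35 and 8.80) fell under the limit. In both of these settings the share of members was thus below that of all genes. With dKO peaks kept only if they met the WT threshold at WT depth, the 13 members stayed (36.1%), against 24.2% of all genes. At equal length the dKO peaks of LAMB2 and SPARC fell outside the limit by rank.

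**Figure D1:**
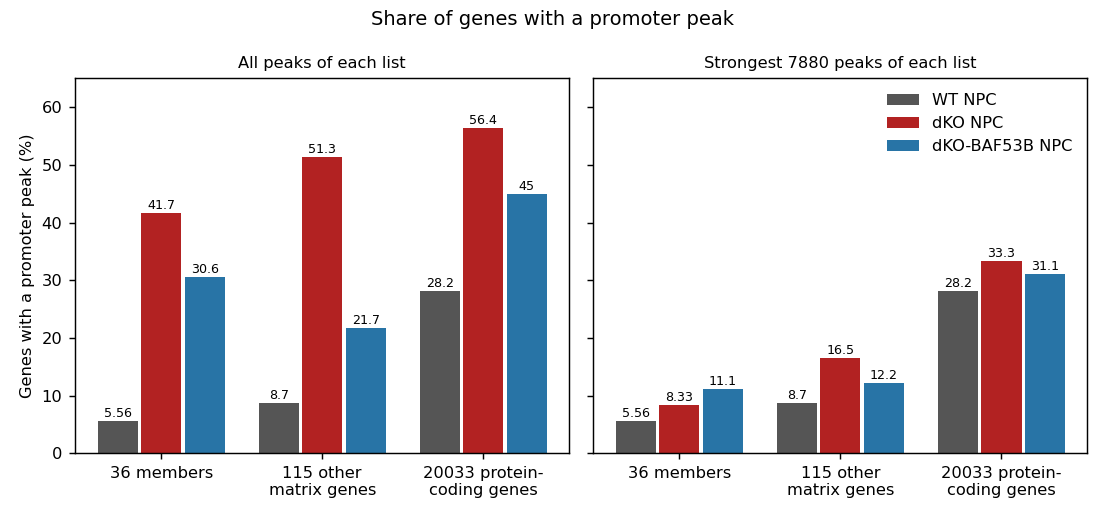
Percentage of genes with a promoter peak (y axis) for the 36 members, 115 other matrix genes and all 20033 protein-coding genes, in WT NPC (grey), dKO NPC (red) and dKO-BAF53B NPC (blue) lists. With all peaks (left) the members stood at 5.56%, 41.7% and 30.6%, and with the strongest 7880 peaks of each list (right) at 5.56%, 8.33% and 11.1%.

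Among the 9 fibrillar collagen genes, promoter peaks were called at 0 in WT, 4 in dKO and 3 in dKO-BAF53B. The shares over all genes were 28.2%, 56.4% and 45.0%, so a rise from WT to dKO was not particular to this role. COL1A1 encodes the alpha 1 chain of type I collagen, the main collagen of bone and skin. Its dKO peak had a pileup of 60 and a fold of 3.24, and its dKO-BAF53B peak a pileup of 36 and a fold of 2.96. Neither summit lay at the start of the gene: both were in intron 1, 1227 bp and 833 bp downstream of the TSS, and an annotated lncRNA starts 529 bp from the dKO summit. COL1A2, which encodes the partner chain of type I collagen, had no peak of any kind in any list, and neither had COL3A1, the gene of type III collagen.

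COL2A1 encodes the collagen of cartilage, which is also made in the early neural tube and notochord. It had 2 peaks, both in dKO only. The first lay 199 bp upstream of the TSS with a pileup of 54 and a fold of 3.16. The second lay in intron 18, 15951 bp into the gene, with a pileup of 69 and a fold of 4.71, so that the intron peak was the taller. It lay 132 bp upstream of another annotated transcript start of COL2A1.

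COL5A1 and COL11A1 encode chains of the types V and XI, minor fibrillar collagens that nucleate and limit the width of fibrils. COL5A1 had pileups of 80 in dKO (fold 4.48) and 44 in dKO-BAF53B (fold 4.28), 167 bp and 100 bp upstream of the TSS. COL11A1 had pileups of 63 in dKO and 50 in dKO-BAF53B, with folds of 6.89 and 3.89. The fold of 6.89 was the highest among the promoter peaks of the members, over a local background of 8.295 fragments, against 17.1 at COL5A1 in dKO. COL5A2, COL11A2 and COL27A1 had no promoter peak by this definition. In COL5A2 the annotated 5′ end lies 45551 bp upstream of the canonical transcript, and a WT peak with a pileup of 27 (fold 3.59) lay in exon 1 of that transcript, 40 bp from its start. With the canonical start as TSS, COL5A2 was the 1 member called in WT and missing from dKO.

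The sequences below are the 101 bases around the dKO summits of COL1A1, COL2A1, COL5A1 and COL11A1 on the strand of the gene, read from hg38, and are shown because these 4 genes carry the dKO calls among the fibrillar collagens. Capitals mark a GC box (GGGCGG or its reverse complement) or a CCAAT box (CCAAT or its reverse complement).
COL1A1 intron 1, chr17:50200355-50200455, minus strand: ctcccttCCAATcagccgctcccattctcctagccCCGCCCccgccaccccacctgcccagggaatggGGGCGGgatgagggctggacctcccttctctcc
COL2A1 promoter, chr12:48004703-48004803, minus strand: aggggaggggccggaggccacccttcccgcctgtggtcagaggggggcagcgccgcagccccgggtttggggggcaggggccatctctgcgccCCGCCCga
COL2A1 intron 18, chr12:47988553-47988653, minus strand: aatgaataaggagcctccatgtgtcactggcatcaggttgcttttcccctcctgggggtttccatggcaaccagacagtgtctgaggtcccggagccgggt
COL5A1 promoter, chr9:134641586-134641686, plus strand: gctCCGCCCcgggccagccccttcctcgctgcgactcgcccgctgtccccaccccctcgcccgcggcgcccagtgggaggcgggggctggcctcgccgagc
COL11A1 promoter, chr1:103108570-103108670, minus strand: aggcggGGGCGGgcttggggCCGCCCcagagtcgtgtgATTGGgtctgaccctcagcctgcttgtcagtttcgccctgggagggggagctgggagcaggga

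The 4 promoter summits held a GC box each, with 2 in COL1A1 and 2 in COL11A1, and those of COL1A1 and COL11A1 also a CCAAT box. The summit in intron 18 of COL2A1 held neither. These are matches of letters and not shown to be sites.

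Among the 13 basement membrane genes, promoter peaks were called at 1 in WT, 7 in dKO and 4 in dKO-BAF53B. The shares over all genes were 28.2%, 56.4% and 45.0%. The type IV collagen genes lie in pairs that share 1 start region and are read in opposite directions. COL4A5 and COL4A6 had a single dKO peak between them, with a pileup of 28 and a fold of 3.71. Its summit lay 117 bp upstream of COL4A5 and 224 bp upstream of COL4A6, so the peak cannot be assigned to one of them, and 2 of the 15 members called in dKO rest on the same 535 bp. The pileup of 28 was near the lowest in the list: scaled to the depth of WT it was 26.0, and 25 would have been needed for a WT call over the same background. COL4A1 and COL4A2, which encode the chains found in nearly all basement membranes, had no promoter peak in any list.

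The paired starts are set side by side below, first the dKO summit between COL4A5 and COL4A6 on the strand of COL4A5 (101 bases, hg38) and then the start of COL4A1 that faces COL4A2 (300 bases, RefSeq on GRCh38.p14, from 250 bases before to 50 bases after the start). Capitals mark GC and CCAAT boxes as above.
COL4A5/COL4A6 summit in dKO, chrX:108439671-108439771, plus strand: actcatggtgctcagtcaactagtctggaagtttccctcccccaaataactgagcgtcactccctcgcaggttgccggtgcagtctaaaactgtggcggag
COL4A1/COL4A2 RefSeq promoter of COL4A1, chr13:110307108-110307407, minus strand: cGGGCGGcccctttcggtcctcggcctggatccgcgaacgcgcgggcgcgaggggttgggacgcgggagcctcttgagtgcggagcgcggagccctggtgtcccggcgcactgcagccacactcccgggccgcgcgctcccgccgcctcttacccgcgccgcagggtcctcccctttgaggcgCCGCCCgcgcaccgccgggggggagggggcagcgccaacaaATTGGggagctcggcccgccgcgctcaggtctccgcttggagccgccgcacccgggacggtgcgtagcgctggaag

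The COL4A1 start was 76.7% G and C, with as many CpG dinucleotides as its base content predicts (observed over expected 1.02), and held 2 GC boxes and 1 CCAAT box. The RefSeq promoter of COL4A5 over the same distances was 49.3% G and C with an observed over expected CpG ratio of 0.46. Thus of the 2 paired starts the one poorer in CpG had the dKO peak.

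The laminins are trimers of an alpha, a beta and a gamma chain. LAMB2, encoding the beta 2 chain, was 1 of 2 members with a promoter peak in WT, with a pileup of 37 and a fold of 3.46 at 581 bp upstream of the TSS. In dKO it had a pileup of 53 (fold 3.23) at nearly the same place, and a second peak with a pileup of 43 (fold 2.68) 142 bp downstream of the TSS. With BAF53B no promoter peak was listed for it. LAMA1, encoding the alpha 1 chain of early embryonic basement membranes, had a dKO peak only, 27 bp from the TSS with a pileup of 34 and a fold of 3.26. This peak was also near the limit, with a scaled pileup of 31.6 where 31 was needed for a WT call. LAMC1, encoding the gamma 1 chain common to most laminins, had pileups of 47 in dKO and 37 in dKO-BAF53B, with folds of 3.31 and 2.95. LAMA5 had a promoter peak in dKO-BAF53B only, with a pileup of 35 and a fold of 2.91 at 1860 bp upstream of the TSS. LAMB1, NID1 and COL18A1 had no promoter peak.

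The proteoglycan genes had the tallest peaks among the basement membrane genes. HSPG2, the gene of perlecan, had pileups of 80 in dKO (fold 4.78) and 40 in dKO-BAF53B (fold 3.07), 191 bp and 166 bp upstream of the TSS. AGRN, the gene of agrin, which also clusters acetylcholine receptors at the neuromuscular junction, had promoter pileups of 58 in dKO and 39 in dKO-BAF53B, with folds of 3.21 and 3.60. A further AGRN peak in intron 2 was present in all 3 lists, with pileups of 32 in WT, 79 in dKO and 38 in dKO-BAF53B and folds of 3.63, 4.45 and 3.76. It lay about 13 kb into the gene, 946 bp upstream of an annotated AGRN transcript start as measured from the WT summit. It was the only gene-body peak of a member that was called in all 3 lists.

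The dKO summits of HSPG2 and of both AGRN regions are given as the strongest of the basement membrane group, on the gene strand (101 bases, hg38). Capitals mark GC boxes and CCAAT boxes and, in HSPG2, a match to the SOX consensus ACAANGG.
HSPG2 promoter, chr1:21937451-21937551, minus strand: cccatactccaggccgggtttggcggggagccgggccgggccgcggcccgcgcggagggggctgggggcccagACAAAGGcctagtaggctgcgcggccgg
AGRN promoter, chr1:1019442-1019542, plus strand: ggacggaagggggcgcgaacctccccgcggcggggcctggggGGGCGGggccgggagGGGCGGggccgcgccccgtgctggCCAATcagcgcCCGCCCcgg
AGRN intron 2, chr1:1033098-1033198, plus strand: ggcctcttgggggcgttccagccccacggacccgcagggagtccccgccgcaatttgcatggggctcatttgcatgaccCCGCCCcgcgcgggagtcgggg

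The AGRN promoter summit was 86.1% G and C and held 3 GC boxes and 1 CCAAT box, against 72.3% and 1 GC box at the AGRN intron 2 summit. The HSPG2 summit was 79.2% G and C and held no GC box.

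Among the 7 other collagen genes, promoter peaks were called at 0 in WT, 0 in dKO and 1 in dKO-BAF53B. The shares over all genes were 28.2%, 56.4% and 45.0%. The 1 call was at COL6A1, encoding a chain of the beaded filaments of type VI collagen. It had a pileup of 34 and a fold of 3.20 at 308 bp upstream of the TSS. COL6A2 and COL6A3, which encode its partner chains, had no peak of any kind. The same held for COL7A1, the anchoring fibril collagen of skin, and for COL9A3. COL9A1 and COL12A1 had gene-body peaks only.

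Among the 7 genes of matrix glycoproteins and cross-linking, promoter peaks were called at 1 in WT, 4 in dKO and 3 in dKO-BAF53B. The shares over all genes were 28.2%, 56.4% and 45.0%. SPARC, which encodes a collagen-binding glycoprotein, was the 1 member with a promoter peak in all 3 lists. Its shared peak lay in intron 1, with pileups of 40 in WT, 54 in dKO and 54 in dKO-BAF53B and folds of 3.67, 3.79 and 3.93. It lay 1877 bp, 1812 bp and 1835 bp downstream of the TSS. A second peak at the TSS itself was called in dKO with a pileup of 48 and in dKO-BAF53B with a pileup of 43, and not in WT. The SPARC peak common to all lists was therefore the one in intron 1 and not the one at the start.

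FN1 encodes fibronectin. Its pileup was 31 in dKO (fold 3.43) and 45 in dKO-BAF53B (fold 4.47), so that among the 9 members with promoter peaks in both dKO lists it was the 1 with more fragments in dKO-BAF53B. The dKO pileup scaled to WT was 28.8, where 28 was needed for a WT call. A divergent lncRNA, FN1-DT, starts 392 bp from the dKO summit. FBN1, the gene of fibrillin 1 of the elastic microfibrils, had a dKO peak only, 37 bp upstream of the TSS with a pileup of 48 and a fold of 3.94, and FBN1-DT starts 193 bp from it. TNC, encoding tenascin C of embryonic and neural stem cell matrix, had a pileup of 38 in both dKO (fold 3.64) and dKO-BAF53B (fold 3.10). LOX, the lysyl oxidase that cross-links collagen, and TGFBI had no peak of any kind, and FBN2 had gene-body peaks only.

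Below are the summits in dKO of SPARC in intron 1, which was open in all lists, and of FN1 and FBN1, of which 1 had a dKO-BAF53B peak and the other had none (101 bases each, gene strand, hg38). None held a match to the motifs searched, so no letters are in capitals.
SPARC intron 1, chr5:151685113-151685213, minus strand: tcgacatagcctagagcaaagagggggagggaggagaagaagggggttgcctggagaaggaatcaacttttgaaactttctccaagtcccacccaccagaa
FN1 exon 1, chr2:215435811-215435911, minus strand: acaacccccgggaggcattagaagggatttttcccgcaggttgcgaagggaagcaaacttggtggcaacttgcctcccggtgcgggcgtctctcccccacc
FBN1 promoter, chr15:48645708-48645808, minus strand: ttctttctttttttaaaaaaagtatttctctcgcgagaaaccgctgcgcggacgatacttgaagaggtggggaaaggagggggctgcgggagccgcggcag

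**Figure D2:**
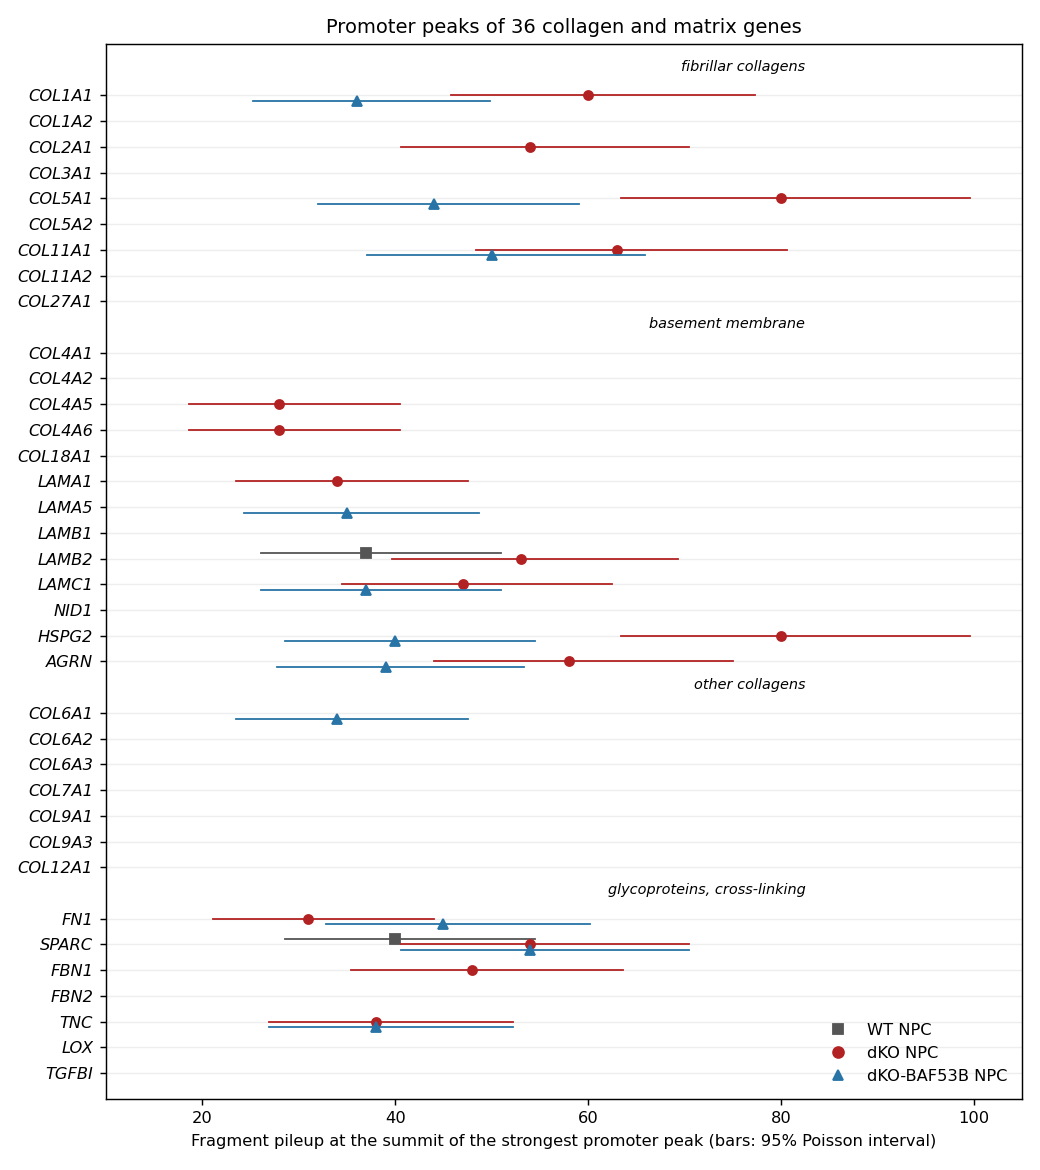
Summit pileup in fragments (x axis) of the strongest promoter peak of each of the 36 members (rows, by role) in WT NPC (grey squares), dKO NPC (red circles) and dKO-BAF53B NPC (blue triangles), with 95% Poisson intervals for counting error as bars; a row with no marker had no promoter peak. The highest values were 80, at COL5A1 and HSPG2 in dKO, and 2 WT markers are present, at LAMB2 and SPARC.

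Promoter peaks of the members were of ordinary to low height. Their median pileup was 38.5 in WT (2 genes), 53 in dKO (15 genes) and 39 in dKO-BAF53B (11 genes), against 40, 57 and 46 over all genes with a promoter peak. The median member stood at percentile 43.9 of all such genes in dKO and at percentile 29.6 in dKO-BAF53B. The strongest summit of a gene lay within 500 bp of the TSS at 0 of 2 members in WT, 10 of 15 (66.7%) in dKO and 6 of 11 (54.5%) in dKO-BAF53B, against 82.9%, 78.4% and 80% over all genes. In dKO the strongest summits beyond 500 bp were those of COL1A1, LAMB2, AGRN, SPARC and TNC. LAMB2 and SPARC each had a second dKO peak at the start, and with any peak counted 12 of 15 members (80%) had a dKO summit within 500 bp, against 81.1% of all genes. In dKO-BAF53B it was 7 of 11 (63.6%), against 82%.

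**Figure D3:**
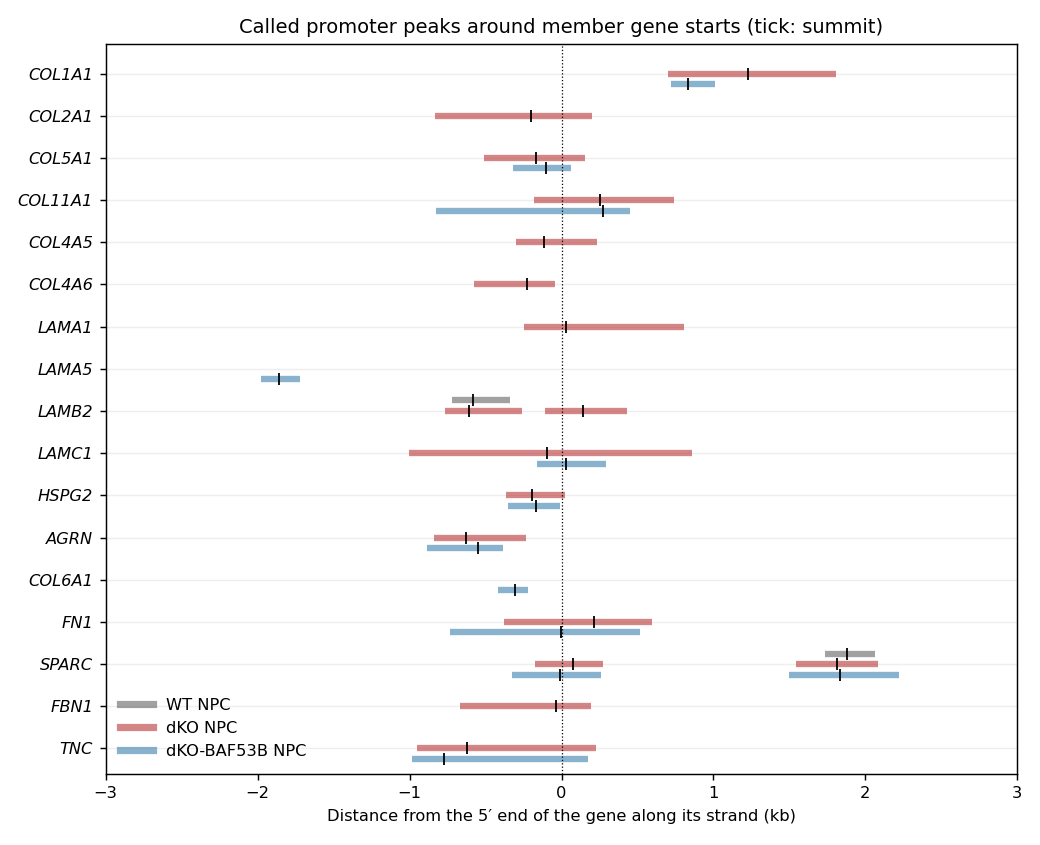
Extent of each promoter peak (bars) and its summit (black ticks) as distance in kb from the 5′ end of the gene along its strand (x axis), for the 17 members with a promoter peak, in WT NPC (grey), dKO NPC (red) and dKO-BAF53B NPC (blue) lists. COL1A1 and the peak of SPARC common to the 3 lists lie downstream of the start, in intron 1, and LAMA5 lies 1860 bp upstream.

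Gene-body peaks were defined as peaks that overlapped the gene and did not touch the promoter window. They were found at 4 members in WT (11.1%, against 9.34% of all genes), at 13 in dKO (36.1%, against 27.1%) and at 9 in dKO-BAF53B (25%, against 19.8%). Matrix genes are long, with a median of 88.2 kb against 27.5 kb over all genes, and per length the order was turned. The members had 0.104 body peaks per 100 kb in WT (exact Poisson 95% interval 0.0284 to 0.267, 4 peaks), 0.443 in dKO (0.258 to 0.709, 17 peaks) and 0.234 in dKO-BAF53B (0.107 to 0.445, 9 peaks), where intervals cover counting error only. Over all genes the density was 0.164, 0.700 and 0.443 per 100 kb. The interval of the members reached the value of all genes in each list.

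Few gene-body peaks coincided between lists. Of the 17 in dKO, 1 (5.88%) overlapped a WT peak (AGRN), against 15.8% of the dKO gene-body peaks of all genes, and 3 (17.6%) overlapped a dKO-BAF53B peak (AGRN, LAMB2 and FBN2), against 34.2%. COL12A1 had 1 gene-body peak in each list at 3 separate places, in intron 11 in WT (pileup 26), intron 2 in dKO (pileup 33) and intron 58 in dKO-BAF53B (pileup 28). COL9A1, encoding a chain of a cartilage collagen that sits on type II fibrils, had a WT peak in intron 14 (pileup 27) and a dKO peak in intron 6 (pileup 29), the latter 78 bp upstream of an annotated transcript start of its own. COL5A2 had, besides the WT peak at its canonical start, a dKO peak in intron 1 (pileup 27). COL27A1 had 3 dKO peaks, in introns 3, 4 and 38, with pileups of 35, 43 and 33.

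Several of these peaks lie at the start of another transcript. Of the 17 dKO gene-body peaks, 6 had their summit within 1 kb of another annotated start of the same gene. Those of LAMB2 and FBN2, which are among these 6, were also within 1 kb of the start of another protein-coding gene. The same share over all dKO gene-body peaks was not computed, so this is not shown to be particular to members. The LAMB2 body peak, with pileups of 57 in dKO and 32 in dKO-BAF53B, had its summit just beyond the end of LAMB2 and within 9 bp of the start of USP19. The FBN2 body peak, with pileups of 38 in dKO and 44 in dKO-BAF53B, lay 546 bp and 198 bp upstream of the canonical start of FBN2, and 778 bp and 430 bp from the start of SLC27A6. With the canonical start as TSS it counted as a promoter peak in both lists.

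Away from such starts, COL4A2 had dKO peaks in introns 20 and 32, with pileups of 54 and 31, and a dKO-BAF53B peak in intron 4 with a pileup of 33. COL4A1 had 1 peak in intron 1 in dKO-BAF53B (pileup 31). COL18A1, whose C-terminal fragment is endostatin, had a dKO peak in intron 2 (pileup 46). LAMB1 had a dKO peak in intron 4 (pileup 38) and a dKO-BAF53B peak in intron 13 (pileup 31). COL5A1 had a dKO peak in intron 2 (pileup 50), COL11A1 a dKO peak in intron 42 (pileup 38) and a dKO-BAF53B peak in intron 1 (pileup 27), and LAMC1 a dKO-BAF53B peak in intron 1 (pileup 35). No peak of either kind in any list was found at 10 members (27.8%), against 30.0% of all genes: COL1A2, COL3A1, COL11A2, NID1, COL6A2, COL6A3, COL7A1, COL9A3, LOX and TGFBI.

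**Figure D4:**
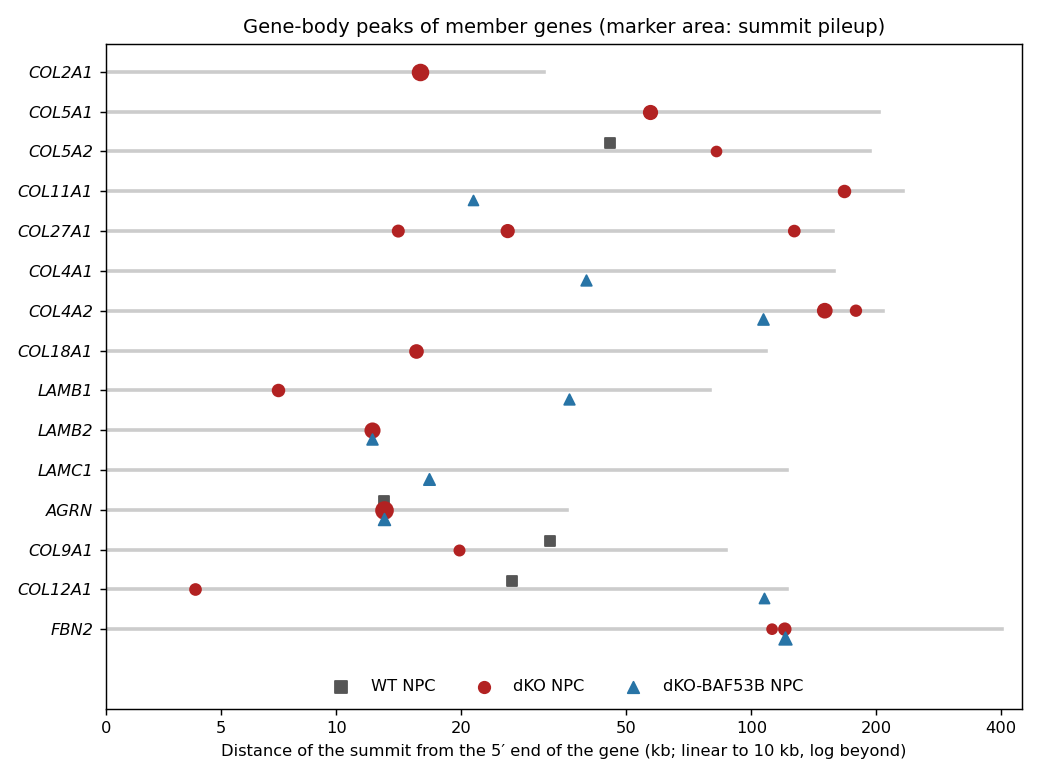
Distance of gene-body peak summits from the 5′ end of the gene in kb (x axis, linear to 10 kb and logarithmic beyond) in the 15 members that had any, with the length of the gene as a grey line and marker area in proportion to the summit pileup; WT NPC grey squares, dKO NPC red circles, dKO-BAF53B NPC blue triangles. AGRN is the gene whose markers from all 3 lists coincide, near 13 kb.

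Of the 15 promoter calls at matrix genes in dKO, 9 were also present in dKO-BAF53B and 6 (40%) were missing, against 23.9% missing over all genes with a dKO promoter peak. A call in dKO that was missing from dKO-BAF53B was found at 6 members (16.7%), against 13.5% of all genes: COL2A1, COL4A5, COL4A6, LAMA1, LAMB2 and FBN1. Their dKO pileups ran from 28 to 54. The reverse was found at 2 members (5.56%), against 2.05% of all genes, namely LAMA5 and COL6A1. These both lay at the limit: scaled to WT depth, their pileups of 32.7 and 31.8 fell below the 34 and 32 needed for a WT call. The same was seen for the dKO-BAF53B peaks of COL1A1 and LAMC1, so that 7 of the 11 dKO-BAF53B members and 15 of the 15 dKO members met the WT threshold at WT depth. These 7 and 15 were 19.4% and 41.7% of members, against 40.7% and 51.7% of all genes. By the WT threshold at WT depth, 8 members (22.2%) were called in dKO and not in dKO-BAF53B, against 13.2% of all genes. The reverse was found at 0 members, against 2.15% of all genes. At a −log10 q of at least 10, 6 of 9 dKO calls (66.7%) were missing from dKO-BAF53B, against 36.1% over all genes. Of these 6, COL1A1, HSPG2 and AGRN had a dKO-BAF53B peak that fell under this limit (−log10 q 5.72, 6.85 and 8.71). With lists of equal length 1 member (HSPG2; 2.78%) was called in dKO and not in dKO-BAF53B, against 7.34% of all genes. That was 1 of 3 dKO calls (33.3%), against 22% over all genes.

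At the 9 members with a promoter peak in both lists, the pileup over genome background was compared as a ratio, with an exact conditional Poisson 95% interval that covers counting error only. The median log2 ratio of dKO-BAF53B over dKO was −0.34 (range −0.99 to 0.55), against −0.44 over 8604 genes with a peak in both lists. The ratio was above 0 at 3 of the 9 members, against 13.7% of genes. At SPARC and TNC, which are 2 of the 3, the pileups were equal, and the value of 0.01 comes from the depth scaling alone. The interval lay below 0 at HSPG2 (−0.99, −1.58 to −0.43), COL5A1 (−0.85, −1.42 to −0.31) and COL1A1 (−0.73, −1.37 to −0.11). It included 0 at AGRN (−0.56), LAMC1 (−0.34), COL11A1 (−0.33), SPARC (0.01), TNC (0.01) and FN1 (0.55, −0.15 to 1.25). The values differed by measure. By the deposited fold the log2 ratio was above 0 at AGRN (0.17) and below 0 at TNC (−0.23), and it was −0.82 at COL11A1, −0.07 at COL5A1 and −0.13 at COL1A1.

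For dKO over WT only LAMB2 and SPARC could be compared. The log2 ratio was 0.41 at LAMB2 (−0.22 to 1.06) and 0.33 at SPARC (−0.29 to 0.95), against a median of 0.77 over 5576 genes. Both intervals included 0. By the deposited fold the values were −0.10 and 0.05. The log2 ratio of dKO-BAF53B over WT at SPARC was 0.33 (−0.28 to 0.96), against a median of 0.27 over 5397 genes.

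**Figure D5:**
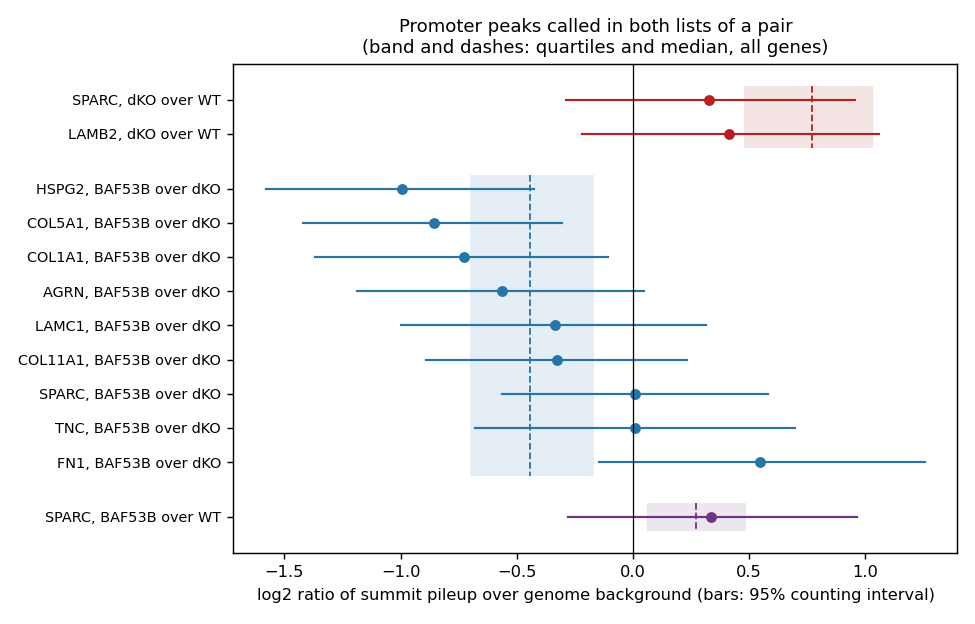
log2 ratio of summit pileup over genome background (x axis) for members with a promoter peak in both lists of a pair, with 95% counting intervals as bars; dKO over WT red, dKO-BAF53B over dKO blue, dKO-BAF53B over WT purple, with the quartiles and median of all genes as a band and dashed line. HSPG2, COL5A1 and COL1A1 lie below 0 with their whole interval, and FN1 is the highest at 0.55.

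The starts of matrix genes were poorer in CpG than those of most genes. Promoters rich in CpG are, as background, open in most cell types. Within 500 bp of the TSS the observed over expected CpG ratio was at least 0.6 at 17 of 36 members (47.2%), against 60% of all genes. Of these 17 CpG-rich members, 0 had a promoter peak in WT, against 41% of CpG-rich genes, 8 (47.1%) had one in dKO, against 77.8%, and 6 (35.3%) in dKO-BAF53B, against 64%. Of the 19 CpG-poor members, 2 (10.5%) had one in WT, against 9.09% of CpG-poor genes, 7 (36.8%) in dKO, against 24.3%, and 5 (26.3%) in dKO-BAF53B, against 16.5%. The low share of members with a promoter peak was thus found among CpG-rich starts and not among CpG-poor ones. The CpG ratio was also taken at canonical starts, with promoter peaks still assigned by the 5′ end of the gene. The dKO shares were then 40% of 20 CpG-rich members, against 73.9%, and 43.8% of 16 CpG-poor members, against 22%. The CpG-rich members without a promoter peak in any list included COL4A1 (0.86), NID1 (0.86), COL18A1 (0.83), COL12A1 (0.83), LAMB1 (0.82) and COL6A2 (0.75).

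Motif letters at the 15 member promoter summits in dKO were compared with those at all 11301 dKO promoter summits in windows of 101 bases on both strands. A GC box was present at 5 of 15 (COL1A1, COL2A1, COL5A1, COL11A1 and AGRN), against 44.1% of all. A CCAAT box was present at 3 of 15 (COL1A1, COL11A1 and AGRN), against 23.4%. The SOX consensus was present at 1 of 15 (HSPG2), against 2.87%. The AP-1 consensus TGANTCA was present at 0 of 15, against 1.04%, and the TATA box TATAAA at 0 of 15, against 0.911%. The motifs do not overlap each other in the sequences shown. The median G and C content of the member summits was 69.3%, against 67.3% of all. In RefSeq promoters, which were matched for 27 members and not for COL1A1, COL1A2, COL2A1, COL3A1, COL5A2, LAMA1, AGRN, COL6A1 or COL9A3, a GC box stood in 25 of 36 promoters of these members, several genes having more than 1, against 45% of 35116 promoters. The CCAAT box stood in 12 (against 34.6%), the TATA box in 3 (11.5%), the SOX consensus in 3 (12%) and the AP-1 consensus in 0 (7.71%). Some of the 36 overlap, such as those of COL5A1 and those of COL4A1 and COL4A2, so they are not separate counts.

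Other genes of the matrix pathway, 115 in 6 lists that do not include the members, showed the same order of lists. A promoter peak was present at 10 (8.7%) in WT, 59 (51.3%) in dKO and 25 (21.7%) in dKO-BAF53B. It was present in dKO and not in WT at 51 (44.3%), in WT and not in dKO at 2 (1.74%), in dKO and not in dKO-BAF53B at 34 (29.6%) and the reverse at 0, against the 28.6%, 0.399%, 13.5% and 2.05% of all genes given above. As for the members, the 44.3% was taken over all 115 genes and not over those without a WT peak. With lists of equal length, dKO held 19 of these genes (16.5%) and WT 10 (8.7%), and 13 (11.3%) were called in dKO and not in WT, against 9.35% of all genes. At a −log10 q of at least 10 the share went the other way, with 23 (20%) in dKO and not in WT, against 28.2% of all genes.

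Of 22 matrix receptors, 15 had a promoter peak in dKO, 2 in WT and 5 in dKO-BAF53B. Those called in dKO and not in WT were 13, the most by number of any pathway list. Over all genes the share of such calls was 28.6%, and collagen-processing enzymes stood close to the receptors, at 12 of 21. Among the 13 receptors were the integrin chain genes ITGA3 (pileup 71 in dKO), ITGAV (63 in dKO and 36 in dKO-BAF53B) and ITGA7 (51 in dKO) and the syndecan gene SDC2 (59 in dKO and 63 in dKO-BAF53B). ITGA3 and ITGA7 are laminin-binding chains. Collagen-processing enzymes had peaks at 16 of 21 in dKO, 4 in WT and 11 in dKO-BAF53B, 12 of them in dKO and not in WT. Here PLOD3, a lysyl hydroxylase of collagen, had a pileup of 83 in dKO and 47 in dKO-BAF53B, SERPINH1, the collagen chaperone HSP47, had 66 in dKO alone, P4HA2, a prolyl hydroxylase subunit, had 65 and 39, and PCOLCE, which enhances procollagen cleavage, had 51 in dKO alone.

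Among 23 further collagen genes, promoter peaks were called at 8 in dKO, 1 in WT and 1 in dKO-BAF53B. Of these 8, COL4A3 and COL4A4 share a single dKO peak with a pileup of 28. COL9A2 (pileup 61), COL26A1 (47) and COL16A1 (47) had one in dKO alone, and COL25A1, a membrane collagen of neurons, had 50 in dKO and 39 in dKO-BAF53B. COL5A3 was the 1 further collagen gene with a peak in WT (pileup 31) and not in dKO, and THBS2, with a WT pileup of 37, was the other pathway gene of that kind. Among the further laminin and nidogen genes, NID2 (pileup 37), LAMA4 (33) and LAMA2 (29) had a promoter peak in dKO alone. Of 26 further glycoproteins and proteoglycans, 10 had one in dKO, 2 in WT and 6 in dKO-BAF53B, the tallest of those absent from WT being EMILIN1 (65), EFEMP2 (62), FBN3 (58) and FBLN1 (58). Of 16 matrix proteases and inhibitors, 6 had one in dKO, 1 in WT and 2 in dKO-BAF53B, among them ADAMTS4 (84), TIMP2 (58), MMP17 (48) and MMP15 (44) in dKO and not in WT. The pathway lists are small, and their counts carry no test. Each count is to be read beside the shares over all genes of 28.2% in WT, 56.4% in dKO and 45.0% in dKO-BAF53B.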

How the data were processed

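ATAC-seq libraries came from 6 samples, with 2 replicates for each of WT, dKO and dKO-BAF53B NPCs. Per the study's methods, the authors cut adaptors with cutadapt 1.13, aligned reads to hg38 with Bowtie2 2.2.5, removed duplicates with SAMtools 1.3.1 and Picard 1.90 and called peaks with MACS2. The insertion shift and the peak calling options are not given in the sources used here. The deposited lists, 1 per group over both replicates, give for each peak a fold (a ratio of pileup over local background, with a pseudocount of 1), a −log10 p-value and a −log10 q-value of at least 5 as computed by the authors.

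From fold and −log10 p the whole pileup and the local background were solved, which succeeded for 100% of peaks within 0.001 of the −log10 p. The lowest background (6.33, 6.81 and 6.78 in WT, dKO and dKO-BAF53B) served as depth. Pileups carry exact Poisson intervals for counting error only. A depth of 25 to 26 fragments was the least that was listed. Genes were those of GENCODE 44, and overlaps counted from 1 bp. Steps were tested on simulated data. Software was scipy 1.17.1, pandas 2.3.3, numpy 2.4.6, matplotlib 3.10.9, pysam 0.24.0 and samtools 1.23.1 under Python 3.11.15.

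The members, the pathway and marker lists and the settings were chosen with earlier results of these data known. All members were accounted for. Of each pathway list at most 4 genes were named, those of highest dKO pileup among genes with a promoter peak in 1 of WT and dKO only. A further pathway gene is not reported here. COL5A3 and THBS2 were named after their values were seen. The alternatives tried were a minimum −log10 q of 10, lists of equal length by −log10 q, a window of 1 kb, canonical or all transcript starts, the summit inside the window, and, for ratios, the deposited fold, overlapping peaks only and the same filters. Scaling to WT depth and threshold, CpG content at canonical starts, the overlap of gene-body peaks over all genes and the share of dKO calls missing from dKO-BAF53B were added after the data had been seen. Results of the authors' differential peak calling were not used here.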

Additional observations from a re-analysis of the deposited data

How the results depend on the processing

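No paired analysis was possible because both replicates of a group share 1 pooled list, and for that reason no replicate could be left out. Limiting the lists to a −log10 q of at least 10 left promoter peaks at 0 members in WT, 9 in dKO and 4 in dKO-BAF53B. These were 0%, 25% and 11.1% of members, against 14.3%, 42.3% and 28.8% of all genes, whose shares also fell. In dKO-BAF53B and not in dKO there was 1 member (2.78%, against 1.74%). Gene-body peaks were left at 0, 7 and 1 members (0%, 19.4% and 2.78%, against 2.97%, 13.8% and 8.23%). With lists of equal length, promoter peaks were at 3 members in dKO (8.33%, against 33.3% of all genes) and 4 in dKO-BAF53B (11.1%, against 31.1%). There were 3 in dKO and not WT (8.33%, against 9.35%) and 2 in WT and not dKO (5.56%, against 4.24%). In dKO and not dKO-BAF53B there was 1 (2.78%, against 7.34%). Gene-body peaks were at 3 in dKO (8.33%, against 9.03%) and 1 in dKO-BAF53B (2.78%, against 9.25%). A 1 kb window gave 1 member in WT (2.78%, against 26.6% of all genes) and 1 in dKO-BAF53B and not in dKO (2.78%, against 1.86%). Canonical starts gave 1 in WT and not dKO (2.78%, against 0.384%). With all transcript starts there were 4 in WT (11.1%, against 31.6%) and 1 in WT and not dKO (2.78%, against 0.404%). Gene-body peaks were then at 2, 8 and 5 members (5.56%, 22.2% and 13.9%, against 5.2%, 17.8% and 12.6%). Scaled to WT depth and threshold, dKO-BAF53B had 7 members (19.4%, against 40.7% of all genes), and 0 were in dKO-BAF53B and not in dKO (against 2.15%). The median log2 ratio of dKO over WT, 0.37 by pileup, was −0.0256 by the deposited fold, over 2 genes, so that its direction turned. The filters shorten the lists by construction, and the cause of the other differences was not tested. Members in dKO and dKO-BAF53B and not in WT, 8 with all peaks, were 3 at a −log10 q of at least 10 (8.33%, against 13.9% of all genes). At equal length they were 2 (5.56%, against 4.64%). Members with no peak of either kind were 23 in place of 10 under each of these filters (63.9%, against 47.4% and 50.6%). Members with a promoter peak in no list were 30 in place of 19 at equal length (83.3%, against 59.1%). The other alternatives for these counts stayed within 1.5 times the main count, and the other median ratios kept their sign, while by the deposited fold the ratios of AGRN (0.17) and TNC (−0.23) for dKO-BAF53B over dKO turned. The WT count of 2 is too small for any ratio to be firm, and peaks below about 25 fragments were not detectable at this depth.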
